A study of Mus musculus with 2 samples.

Results

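Circular RNAs (circRNAs) of the forkhead transcription factor genes Foxp1, Foxp4, Foxn2, Foxn3, Foxo1, Foxo3, Foxj3, Foxk1 and Foxk2 were followed in intestinal cells of mice. A circRNA is a closed RNA whose splice donor was joined back to an acceptor upstream of it, and reads across that back-splice junction count it. Members were chosen by the host gene that the deposited lists name, whatever their reads. They came to 77 of 31496 listed circRNAs, 50 of 18438 in the library labelled ISC and 46 of 18324 in the library labelled non-ISC, from 9 of 8174 host genes. The cells were sorted by flow cytometry from mice of the strain Lgr5GFP-CreERT2 at an age of 2 months, whose reporter sits under the control of Lgr5, the surface receptor that marks stem cells at the crypt base. Lgr5-positive cells gave the library labelled ISC (intestinal stem cells) and Lgr5-negative cells the library labelled non-ISC. Both groups carry the same reporter allele and received no treatment named in the labels. Each group has 1 library and the labels do not say how many mice it pools, so the differences below stand without replicates and carry no p-value.

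Junction reads totalled 156582 in the library labelled ISC and 76331 in that labelled non-ISC. A limit of 3 reads for a count of 0 thus corresponds to 19.2 per 1000000 junction reads labelled ISC and 39.3 labelled non-ISC. Marker genes went against the labels. Of 8 crypt stem cell markers with circRNA reads, 6 had none in the library labelled ISC, Lgr5 among them (0 reads labelled ISC, 7 labelled non-ISC), and the list summed to 33 reads labelled ISC against 171 labelled non-ISC. Epithelial markers summed to 7 reads labelled ISC against 236 labelled non-ISC, with Epcam and Cdh1 at 0 in the library labelled ISC, and enterocyte markers to 5 labelled ISC against 365 labelled non-ISC. Markers of T and other lymphoid cells summed to 7246 reads labelled ISC against 131 labelled non-ISC, and each of the 12 with reads was higher in the library labelled ISC. B cell markers summed to 3 reads in each library, myeloid markers to 9 reads labelled ISC and 3 labelled non-ISC, and stromal and endothelial markers to 73 reads labelled ISC against 7 labelled non-ISC, of which Pecam1 held 67 labelled ISC and 7 labelled non-ISC. Every direction below is therefore one between the libraries as labelled, and the part of cell composition in it was not tested.

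Forkhead proteins bind DNA through a winged helix domain whose recognition helix lies in the major groove. FoxP proteins are repressors that pair with one another. Foxp1 holds naive T cells in quiescence, is needed for early B cells, and acts with Foxp4 in the epithelium of lung and gut. FoxO proteins are moved out of the nucleus when the kinase Akt phosphorylates them after insulin or growth factor signals, and they drive genes of cell cycle arrest, autophagy and lymphocyte homing. FoxK proteins act in metabolism and autophagy, and Foxn3 is a repressor tied to cell cycle checkpoints. The study from which these libraries come dealt with interleukin 13 signalling to Foxp1 and beta-catenin in intestinal stem cells, and with a circRNA of Pan3.

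Circles of Foxn2 and Foxn3, with 1 circle each of Foxp1, Foxp4 and Foxj3 for comparison, are shown by their junctions to let the shared and the private parts be seen. Each line gives 30 bases across a back-splice junction, 5′ to 3′, with the last 10 bases of the circle followed by its first 20, from GENCODE M21 transcripts on GRCm38. Capitals mark the start codon in circles of Foxn2, Foxn3, Foxp4 and Foxj3, which begin a few bases upstream of it. In the circle of Foxp1, which holds no start codon of the full protein, capitals mark the first 3 bases of the circle.
Foxp1 exons 3 to 6, chr6:99003200-99016665, minus strand: aaagggaaagGTTcccgtgtcagtggctat
Foxn2 exon 2, chr17:88462713-88463263, plus strand: tcatggcaagaaatatacgagtaaATGggt
Foxn2 exons 2 to 4, chr17:88462713-88479340, plus strand: actctccaagaaatatacgagtaaATGggt
Foxn3 exon 2, chr12:99388361-99388917, minus strand: gaggagtcaggagccttcacgtaaATGggt
Foxn3 exons 2 to 3, chr12:99341422-99388917, minus strand: cttatcaaaggagccttcacgtaaATGggt
Foxn3 exons 2 to 4, chr12:99291237-99388917, minus strand: ctcctgcaaggagccttcacgtaaATGggt
Foxp4 exons 2 to 3, chr17:47888125-47904534, minus strand: tgcggtgcaggtcccgattgagcggcaATG
Foxj3 exons 2 to 3, chr4:119560603-119573800, plus strand: tggttggaagattctctttgtggccagATG
The circles of Foxn2 and of Foxn3 share their acceptor side within each gene. Within a gene, the side that differs shows which other splice site the circle used.

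The first comparison asked how many forkhead circRNA reads each library held and from which genes. Foxp1, Foxn2 and Foxn3 carried nearly all of them, 87.9% of the forkhead reads labelled ISC and 91.05% of those labelled non-ISC. Summed over the 9 genes there were 552 reads labelled ISC and 391 labelled non-ISC, or 3525 per 1000000 junction reads labelled ISC and 5122 labelled non-ISC. The ratio of these shares of the libraries, labelled ISC over labelled non-ISC, was 0.688 (0.6035 to 0.785), where the range is an exact 95% interval for counting error only. Scaled instead to the read totals implied by the deposited RPM values, which raises every ratio by 1.49 on the log2 scale, it was 1.94, so the direction of the sum depends on the scaling. In RNA of mixed cells, fewer cells of a type and less of the RNA in each cell cannot be told apart.

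A gene or circRNA was called higher or lower where its reads over both libraries came to 10 or more, the libraries differed 2-fold or more, and the interval excluded 1. Of the 9 genes, 6 had enough reads, and 0 were called higher and 0 lower. Over all host genes with enough reads 26.7% were called higher and 22.7% lower, of 2920. The median log2 ratio of the 6 genes was −0.28, and that of the 2920 was 0.16. Of 35 forkhead genes outside the rule, only Foxm1 (4 reads labelled ISC, 3 labelled non-ISC) and Foxn1 (1 read labelled ISC) had circRNA reads.

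Each circle has 1 back-splice junction whatever its length, so junction reads of the genes can be set side by side without a length term. Foxp1 (chromosome 6, 98925338 to 99522721, minus strand) led the library labelled ISC with 230 reads, or 1469 per 1000000. Its 119 reads in the library labelled non-ISC came to 1559 per 1000000, a ratio of 0.942 (0.752 to 1.19), which became 2.65 under the scaling to RPM totals. Among the host genes nearest to Foxp1 in log2 reads per 1000000 over the 2 libraries were Aagab, with 231 reads labelled ISC and 128 labelled non-ISC, and Tmem164, with 240 labelled ISC and 132 labelled non-ISC. Their distances from Foxp1 were 0.11 for Aagab and 0.16 for Tmem164 on the log2 scale.

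Foxn2 (chromosome 17, 88440711 to 88490533, plus strand) had 178 reads labelled ISC against 163 labelled non-ISC, or 1137 per 1000000 labelled ISC against 2135 labelled non-ISC, a ratio of 0.532 (0.428 to 0.6625). Foxn3 (chromosome 12, 99190078 to 99563582, minus strand) had 77 reads labelled ISC against 74 labelled non-ISC, or 492 per 1000000 labelled ISC against 969.5 labelled non-ISC, a ratio of 0.507 (0.364 to 0.708). Both intervals lay below 1 without reaching the 2-fold rule, and both ratios passed 1 under the scaling to RPM totals, at 1.499 for Foxn2 and 1.43 for Foxn3. Foxn2 was ahead of Foxp1 in the library labelled non-ISC and behind it in the library labelled ISC, and within each library the gap between the pair exceeded counting error.

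The other 6 genes were at low level. Foxj3, a factor of muscle fibre and male germ cell programs in mice, had 21 reads labelled ISC and 11 labelled non-ISC, a ratio of 0.931 (0.429 to 2.14). Foxo3, the FoxO member known for restraint of stem cell and lymphocyte proliferation, had 20 reads labelled ISC and 10 labelled non-ISC, a ratio of 0.975 (0.436 to 2.33). Foxp4 had 17 reads labelled ISC and 11 labelled non-ISC, a ratio of 0.753 (0.333 to 1.78). All 3 intervals include 1 and reach a 2-fold change in at least 1 direction, and the 3 genes could not be told apart in level within either library. Scaled to RPM totals, the ratios were 2.62 for Foxj3, 2.75 for Foxo3 and 2.12 for Foxp4. Foxk2 had 4 reads labelled ISC and 2 labelled non-ISC, Foxk1 had 4 labelled ISC and 1 labelled non-ISC, and Foxo1 had 1 read labelled ISC and 0 labelled non-ISC. These lowest 3 were not separable from one another in either library.

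**Figure D1:**
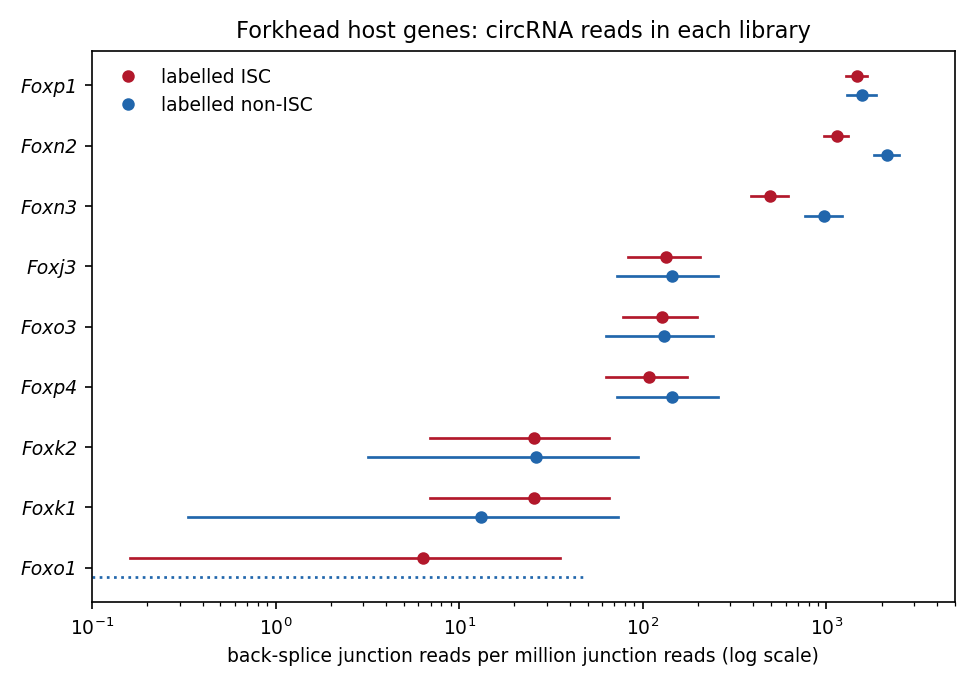
Back-splice junction reads per 1000000 junction reads (log scale) of the 9 forkhead host genes, with exact 95% counting intervals, in the library labelled ISC (red, upper) and the library labelled non-ISC (blue, lower); 1 library each. Foxn2 and Foxn3 sit lower in the library labelled ISC with intervals that do not overlap, while Foxp1 sits at 1469 labelled ISC and 1559 labelled non-ISC, and the dotted line for Foxo1 is the interval of a count of 0. Missing entries count as 0, and over circles with reads in both libraries the Foxn3 ratio was 2.59. Under the scaling to RPM totals the ratios of Foxn2 and Foxn3 passed 1.

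The second comparison asked which circle of each gene carried the reads. Of 15 forkhead circRNAs with at least 10 reads, 2 were called higher in the library labelled ISC and 5 lower, where 32.4% of all 3659 such circRNAs were called higher and 23.0% lower. The 2 higher ones were exons 5 to 6 of Foxp1 and exon 2 of Foxn3. Of the 5 lower ones, 1 Foxp1 circle had reads in both libraries and the other 4 had no entry in the library labelled ISC. A missing entry need not mean 0 reads, since abundant circRNAs can lack one, so those 4 are given as reads with no fold. Shares of a gene's reads do not depend on how the libraries are scaled, and they are used from here on. Over the 600 host genes with at least 20 reads in both libraries, the leading circRNA of the library labelled ISC had a share outside counting error in 22.3%, that of the library labelled non-ISC in 25.5%, and 27.5% had a different leading circRNA in each library. Of the 3 forkhead genes with that depth, Foxp1, Foxn2 and Foxn3, all 3 had shares apart on both measures, and in Foxp1 and Foxn3 the leading circle differed. In Foxn2 the same circle led both libraries, so there both measures are the same comparison. These 3 genes had from 74 to 230 reads in each library, well above the minimum of 20. Intervals narrow with depth, and the 600 genes were not matched to them in depth, so the percentages are not a like background. Each leading circle was also picked by the reads that its shares then compare, which by itself tends to set the shares apart. With reads halved, the leading shares labelled ISC of Foxp1 and Foxn2 were no longer apart, and over circles with reads in both libraries that of Foxn2 was not either.

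Foxp1 made the most circles, 32 seen in the library labelled ISC against 18 in that labelled non-ISC, with 11 in both. Thinned to the smaller number of reads, the library labelled ISC would hold 25.97. The inverse Simpson index, an effective number of equally used circles, was 8.70 for the library labelled ISC and 9.61 for the library labelled non-ISC, so no single circle dominated.

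Its leading circle in the library labelled ISC, at chr6:99003200-99010057, joins exons 5 and 6 of transcript Foxp1-207, 359 coding nucleotides that hold neither the start codon nor the recognition helix. It had 61 reads labelled ISC and 13 labelled non-ISC. That is 26.5% (20.9 to 32.7) of Foxp1 reads labelled ISC against 10.9% (5.95 to 17.96) labelled non-ISC, and the ratio between the libraries was 2.29 (1.24 to 4.54). With reads halved, to allow for pairs counted on both mates, the ratio was 2.22 with an interval from 0.959 to 5.97, and in the deposited count column it was 1.42, and in both the call was lost.

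A second circle of the same exons begins 3 bases further in, at the acceptor of transcript Foxp1-201 (chr6:99003200-99010054). It measures 356 nucleotides and had 4 reads labelled ISC and no entry labelled non-ISC. The annotated protein has 706 residues in Foxp1-207 and 705 in Foxp1-201. Another circle on the same donor, whose junction is shown above, takes in exons 3 to 6 of Foxp1-201, 581 coding nucleotides, and had 28 reads labelled ISC and 6 labelled non-ISC, a ratio of 2.275 (0.924 to 6.72). Together the donor at position 99003200 carried 93 reads labelled ISC against 19 labelled non-ISC, 40.4% (34.0 to 47.1) of Foxp1 reads labelled ISC against 16.0% (9.895 to 23.8) labelled non-ISC.

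The leading circle in the library labelled non-ISC lies far upstream of the coding exons, at chr6:99428789-99435345. It had 22 reads labelled ISC and 28 labelled non-ISC, 9.57% (6.09 to 14.1) of Foxp1 reads labelled ISC against 23.5% (16.2 to 32.2) labelled non-ISC. Its ratio of 0.383 (0.209 to 0.694) was called lower, and was 1.08 under the scaling to RPM totals. Its 5′ end, the acceptor at 99435345, lies on an annotated exon end, and its 3′ end at 99428789 matches none. A circle from the same acceptor to 99429210 had no entry labelled ISC and 14 reads labelled non-ISC. Over the 5 circles from this acceptor there were 27 reads labelled ISC and 51 labelled non-ISC, 11.7% (7.88 to 16.6) of Foxp1 reads labelled ISC against 42.9% (33.8 to 52.25) labelled non-ISC. The donor at 99435216 lies on an annotated exon end a short way downstream of that acceptor. This donor carried 24 reads labelled ISC (10.4%, 6.80 to 15.1) and 14 labelled non-ISC (11.8%, 6.58 to 18.95), shares that overlap. Among its circles, the one from 99460450 had 15 reads labelled ISC and 5 labelled non-ISC, and the one from 99514858 had 6 labelled ISC and 5 labelled non-ISC.

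Some unannotated positions were used again and again. Position 99399605 served as the donor of 6 circles with 21 reads labelled ISC and 7 labelled non-ISC, and position 99429210 as that of 4 circles with 26 reads labelled ISC and 20 labelled non-ISC. On the acceptor side, 99456580 began 3 circles with 30 reads labelled ISC and 10 labelled non-ISC, and 99460450 began 3 circles with 20 reads labelled ISC and 5 labelled non-ISC. The circle that joins 99456580 to 99429210 had 22 reads labelled ISC and 6 labelled non-ISC, with neither end on an annotated exon, a ratio of 1.79 (0.703 to 5.39).

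Grouped by position, after reads and positions were seen, Foxp1 circles fell into those from the start codon exon (acceptor at 99163029) onward and those upstream of it. The 9 circles from the start codon exon onward had 111 reads labelled ISC against 25 labelled non-ISC, 48.3% (41.6 to 54.9) of Foxp1 reads labelled ISC against 21.01% (14.1 to 29.4) labelled non-ISC. Most of these reads belong to the donor at 99003200, with 93 labelled ISC and 19 labelled non-ISC. Circles from the acceptor at 99163029 itself held 4.78% (2.41 to 8.40) of Foxp1 reads labelled ISC and 5.04% (1.87 to 10.65) labelled non-ISC, shares that overlap. The 28 upstream circles had 118 reads labelled ISC against 93 labelled non-ISC, 51.3% (44.65 to 57.9) of Foxp1 reads labelled ISC against 78.15% (69.65 to 85.2) labelled non-ISC. Of these 28, both ends lay on annotated exons in 2 and neither end in 13. Another 2 circles, with 1 read in each library, ran across the start codon exon. Over circles with reads in both libraries alone, the difference in the share from the start codon exon onward was 26.55 percentage points, against 27.25 over all of them. The library labelled ISC is also the one with the lymphoid markers given above, at 7246 reads labelled ISC and 131 labelled non-ISC, and the part of these cells in the shift was not tested.

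**Figure D2:**
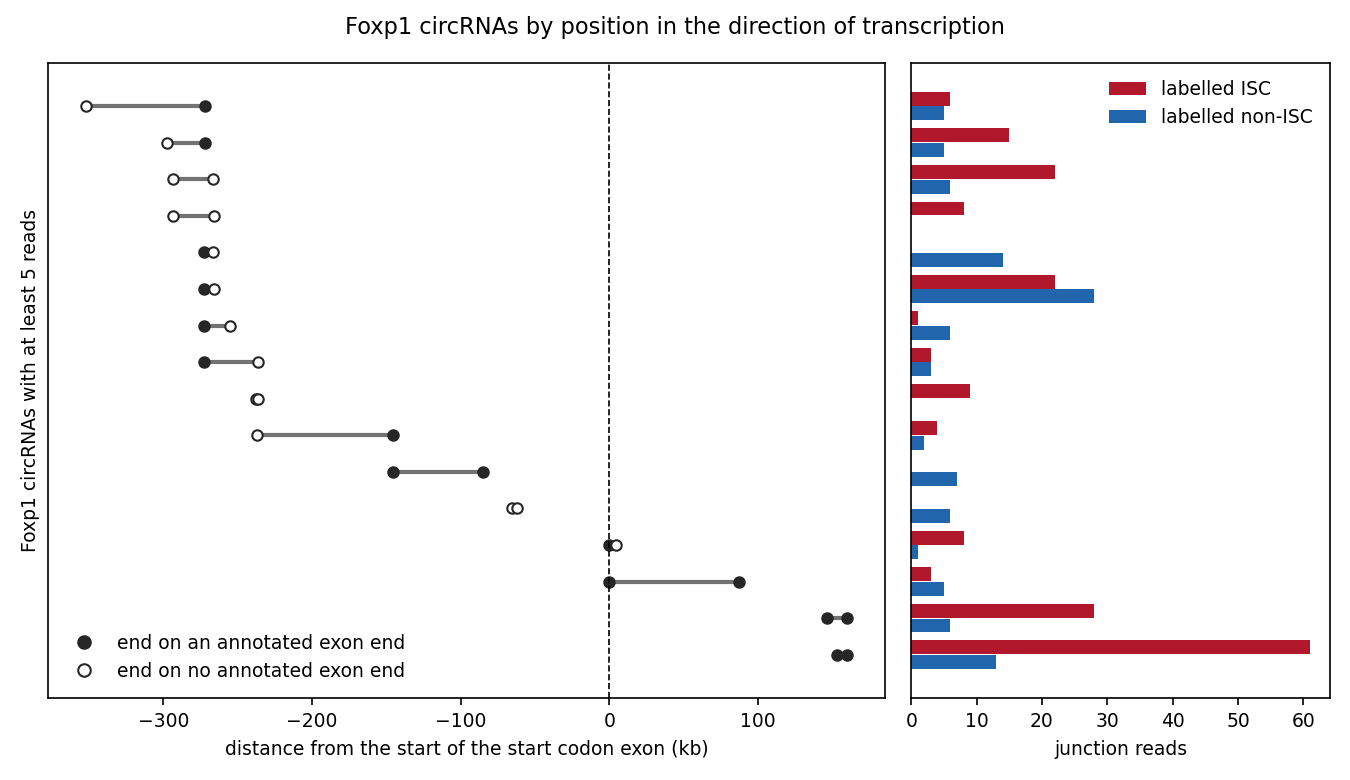
The 16 Foxp1 circRNAs that reach 5 reads over both libraries, placed by distance from the start of the start codon exon in kb along the direction of transcription (left; filled points are ends on annotated exon ends, open points are not), and their junction reads in the library labelled ISC (red) and the library labelled non-ISC (blue; right). The 2 lowest circles, starting 146.36 kb and 152.97 kb downstream, have 28 and 61 reads labelled ISC against 6 and 13 labelled non-ISC, while the circles with most reads labelled non-ISC, 28 and 14, both start at −272.32 kb and end on 1 open point each.

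Foxn2 and Foxn3 form circles of the same design, and their leading circles are made of 1 exon each. In both genes exon 2 (of Foxn2-201 and Foxn3-201) holds the start codon after 14 nucleotides of 5′ untranslated sequence, and in both it codes on into the DNA-binding domain past the recognition helix. The Foxn2 exon is 551 nucleotides long with 537 coding, and the Foxn3 exon is 557 with 543 coding. Aligned end to end, 351 of 518 paired coding bases were identical, or 67.8%. The last 240 bases of each exon, which hold the codons of the recognition helix, are shown 5′ to 3′ with the bases shared at aligned positions in capitals.
Foxn2 end of exon 2, within chr17:88462713-88463263, plus strand: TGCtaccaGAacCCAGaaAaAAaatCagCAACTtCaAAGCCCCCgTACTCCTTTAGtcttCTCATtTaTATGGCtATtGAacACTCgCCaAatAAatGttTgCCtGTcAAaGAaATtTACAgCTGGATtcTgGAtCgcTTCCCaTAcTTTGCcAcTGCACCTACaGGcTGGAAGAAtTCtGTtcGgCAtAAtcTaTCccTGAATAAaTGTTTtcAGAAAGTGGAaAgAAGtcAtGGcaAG
Foxn3 end of exon 2, within chr12:99388361-99388917, minus strand: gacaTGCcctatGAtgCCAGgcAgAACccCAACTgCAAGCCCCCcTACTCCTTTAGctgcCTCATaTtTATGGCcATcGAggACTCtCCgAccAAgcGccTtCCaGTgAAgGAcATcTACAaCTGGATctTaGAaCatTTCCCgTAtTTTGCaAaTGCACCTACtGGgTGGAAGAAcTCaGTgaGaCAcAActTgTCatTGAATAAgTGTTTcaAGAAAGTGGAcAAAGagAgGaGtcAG

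The Foxn2 exon 2 circle was the most abundant forkhead circle in both libraries, with 172 reads labelled ISC and 142 labelled non-ISC. It held 96.6% (92.8 to 98.75) of Foxn2 reads labelled ISC against 87.1% (81.0 to 91.8) labelled non-ISC. Between the libraries its ratio was 0.5905 (0.470 to 0.743), and 1.66 under the scaling to RPM totals. The difference in share rests on a circle of exons 2 to 4, 711 nucleotides long, which had no entry labelled ISC and 18 reads labelled non-ISC. A circle of exons 2 to 3, of 646 nucleotides, had 3 reads in each library. Over circles with reads in both libraries, the share of exon 2 differed by 0.355 percentage points, within counting error.

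For Foxn3 the listed shares differed more, and the difference rests on longer circles without an entry labelled ISC. The exon 2 circle had 69 reads labelled ISC and 13 labelled non-ISC, a ratio of 2.59 (1.42 to 5.10), which was 1.58 and not called in the deposited count column. It made up 89.6% (80.55 to 95.4) of Foxn3 reads labelled ISC against 17.6% (9.70 to 28.2) labelled non-ISC. The circle of exons 2 to 4, 735 nucleotides long, had no entry labelled ISC and 39 reads labelled non-ISC, 52.7% (40.75 to 64.4) of the gene's reads there. The circle of exons 2 to 3, of 670 nucleotides, had no entry labelled ISC and 18 reads labelled non-ISC, 24.3% (15.1 to 35.7). All 3 junctions share the acceptor and differ in the donor, and the longest circle spans 97681 nucleotides of the gene. Inner exons and lengths are taken from the annotated transcript and were not measured. The Foxn3 ratio of 0.507 for the whole gene thus joins an exon 2 circle that was higher in the library labelled ISC with longer circles listed only in the library labelled non-ISC, and the exon 2 circle is the only Foxn3 circle with reads in both, at 2.59. In the deposited count column, whose reads were assigned in a way not given, the share of the exon 2 circle was 4.32% labelled ISC and 3.125% labelled non-ISC, a difference within counting error. A single Foxn3 circRNA with 2 junction reads held 1339 of its counts in the library labelled ISC.

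**Figure D3:**
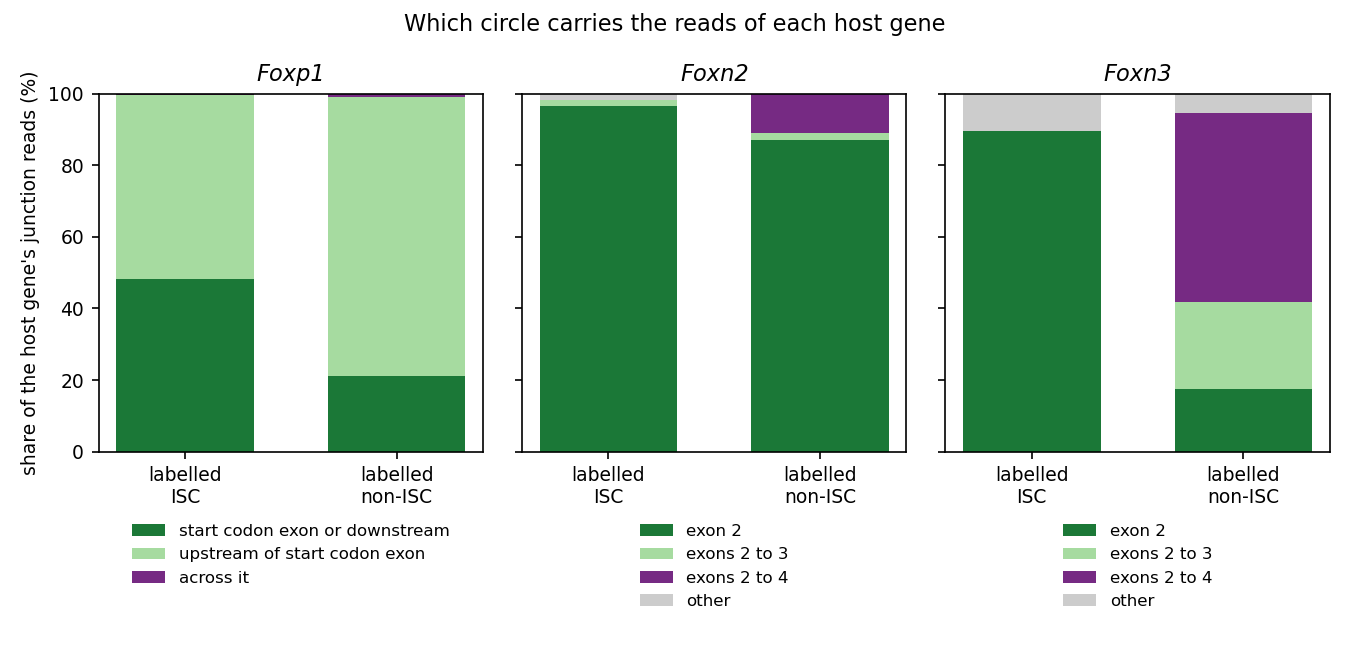
Share of each gene's junction reads (%, bars from 0 to 100) by kind of circle for Foxp1, Foxn2 and Foxn3, with the library labelled ISC on the left of each panel and the library labelled non-ISC on the right; 1 library each, so no error bars. Exon 2 of Foxn3 holds 89.6% of reads labelled ISC and 17.6% of those labelled non-ISC, and the part of Foxp1 from the start codon exon onward 48.3% labelled ISC and 21.01% labelled non-ISC. Most of that Foxp1 part belongs to the donor at 99003200, which holds 40.4% labelled ISC and 16.0% labelled non-ISC.

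The lesser genes each had 1 main circle with reads in both libraries, except Foxk2 and Foxo1. The Foxj3 circle of exons 2 to 3, 386 nucleotides with the start codon 17 nucleotides in, had 11 reads labelled ISC and 9 labelled non-ISC, a ratio of 0.596 (0.2245 to 1.63). A further Foxj3 circle of exons 5 to 7 had 6 reads labelled ISC and no entry labelled non-ISC. The Foxp4 circle of exons 2 to 3, 335 nucleotides with the start codon also 17 nucleotides in, had 17 reads labelled ISC and 8 labelled non-ISC, a ratio of 1.04 (0.424 to 2.77). In the library labelled ISC it was the only Foxp4 circle listed. The Foxo3 circle is exon 3 alone (chr10:42196466-42197901), 1436 nucleotides of which 1398 are coding, and it had 17 reads labelled ISC and 10 labelled non-ISC, a ratio of 0.829 (0.358 to 2.025). In the deposited count column that ratio was 0.00805 (0.00466 to 0.013), called lower. The Foxo3 circle lacks the start codon and holds the codons of the recognition helix. Foxk1 exon 7 (chr5:142453760-142454044) had 4 reads labelled ISC and 1 labelled non-ISC. The Foxk2 circle of exons 2 to 8 (chr11:121285422-121299793) had 4 reads labelled ISC and no entry labelled non-ISC, where 2 shorter circles from the same acceptor had 1 read each. The Foxo1 read came from chr3:52268999-52269278, with neither end on an annotated exon end.

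Circles that begin with the start codon exon were common among forkhead reads, mostly through Foxn2 and Foxn3. Counted are those with both ends on 1 coding transcript, and circles not placed so enter the totals alone. Such circles held 49.8% of all forkhead reads labelled ISC and 65.2% of those labelled non-ISC, where the rest of the libraries had 16.3% labelled ISC and 13.4% labelled non-ISC. With the totals restricted to circles so placed, which leaves out most Foxp1 circles, forkhead shares were 67.9% labelled ISC and 87.3% labelled non-ISC, and those of other genes 18.8% labelled ISC and 15.3% labelled non-ISC. By circRNA, 7 of 15 forkhead circles with at least 10 reads began so, against 469 of 3644 (12.9%) from other genes. Taking the leading circle of each gene, where it lies on a coding transcript, it was 4 of 6 forkhead genes against 364 of 2627 others (13.9%). Foxn2, Foxn3, Foxj3 and Foxp4 were the 4, and Foxp1 and Foxo3 the exceptions. Over all 69 forkhead circRNAs with a read, however few, 9 (13.0%) began with the start codon exon, against 7.42% of other circRNAs. Foxn2 and Foxn3 supply most of these reads: in Foxn2, 175 of 178 labelled ISC and all 163 labelled non-ISC, and in Foxn3, 69 of 77 labelled ISC and 70 of 74 labelled non-ISC. Foxp4 had 17 of 17 labelled ISC and 8 of 11 labelled non-ISC, and Foxj3 11 of 21 labelled ISC and 9 of 11 labelled non-ISC. Foxp1 had 3 of 230 labelled ISC and 5 of 119 labelled non-ISC. Not in that count is a Foxp1 circle from the acceptor of the start codon exon to 99158499, which lies on no annotated exon end. That circle had 8 reads labelled ISC and 1 labelled non-ISC. Foxn3 circles from the exon 2 acceptor to 99331971 (1 read labelled ISC) and to 99340469 (1 read labelled non-ISC) are left out likewise. Foxo1, Foxo3, Foxk1 and Foxk2 had none, so the excess is not a trait of every member. Circles of 1 exon held 47.5% of all forkhead reads labelled ISC and 42.5% of those labelled non-ISC, against 4.99% labelled ISC and 5.22% labelled non-ISC in the rest. Of these 262 reads labelled ISC and 166 labelled non-ISC, Foxn2 exon 2 supplied 172 labelled ISC and 142 labelled non-ISC. Foxn3 exon 2 supplied 69 labelled ISC and 13 labelled non-ISC. The others were Foxo3 exon 3, with 17 labelled ISC and 10 labelled non-ISC, and Foxk1 exon 7, with 4 labelled ISC and 1 labelled non-ISC. The codons of the recognition helix lay in 12 forkhead circles with 266 reads labelled ISC and 246 labelled non-ISC, nearly all of them from Foxn2 and Foxn3. Both ends could be placed on 1 transcript for 25 of 69 forkhead circRNAs with reads (36.2%), against 70.7% in other genes, and Foxp1 had 7 such circles of 39.

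**Figure D4:**
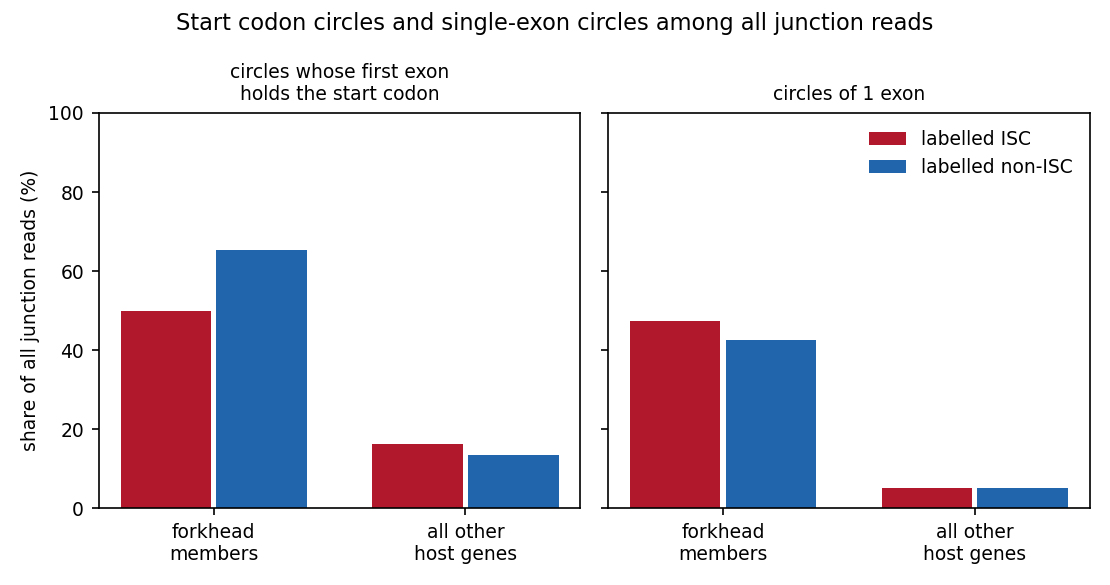
Share of all junction reads (%, from 0) on circles whose first exon holds the start codon (left) and on circles of 1 exon (right), for the forkhead genes and for all other host genes, in the library labelled ISC (red) and the library labelled non-ISC (blue). For the start codon exon, forkhead genes reach 49.8% labelled ISC and 65.2% labelled non-ISC, against 16.3% labelled ISC and 13.4% labelled non-ISC in the rest. Foxn2 and Foxn3 supply most of the forkhead reads in both panels. Circles were assigned to a kind only where both ends lay on 1 transcript (left, a coding one), and the others enter the totals alone.

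The third comparison followed the circRNAs of genes known to act with forkhead factors, in lists drawn up with earlier results of these data known. Among 19 kinases and phosphatases upstream of FoxO with enough reads, 6 were called higher in the library labelled ISC and 2 lower, beside 26.7% higher and 22.7% lower over all host genes, so that the share called higher lay near the background. Their median log2 ratio was 0.72 where all host genes had 0.16. Insr, the insulin receptor, had 295 reads labelled ISC and 47 labelled non-ISC, a ratio of 3.06 (2.24 to 4.26). Rictor, a subunit of the complex that activates Akt, had 58 reads labelled ISC and 5 labelled non-ISC, and Stk4, a kinase that phosphorylates FoxO under stress, had 132 labelled ISC and 30 labelled non-ISC. The 2 called lower, named after their values were seen, were Mtor, with 4 reads labelled ISC and 19 labelled non-ISC, and the Akt phosphatase Phlpp2, with 7 labelled ISC and 18 labelled non-ISC.

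Of 8 FoxO modifiers and adaptors with enough reads, 4 were called higher in the library labelled ISC and 0 lower, beside the same 26.7% and 22.7% over all host genes, with a median log2 ratio of 0.75. They were the nuclear exporter Xpo1, with 97 reads labelled ISC and 19 labelled non-ISC, the deubiquitinase Usp7, with 73 labelled ISC and 7 labelled non-ISC, the 14-3-3 protein Ywhae, with 47 labelled ISC and 11 labelled non-ISC, and the acetyltransferase Kat2b, with 40 labelled ISC and 1 labelled non-ISC. Of 5 FoxO and FoxP target genes with enough reads, 3 were called higher and 0 lower (all host genes 26.7% and 22.7%), with a median of 1.60. Insr and Rictor stand in this list too, and the other was Rag1, the recombinase gene of developing lymphocytes, with 22 reads labelled ISC and no entry labelled non-ISC.

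Of 14 FoxP corepressors and partners, 3 were called higher and 3 lower, near the 26.7% and 22.7% over all host genes, with a median of 0.23. Runx1, a factor of blood and lymphoid cells, had 118 reads labelled ISC and 1 labelled non-ISC. Of the NuRD complex genes, Gatad2b had 140 reads labelled ISC and 28 labelled non-ISC, and Mta1 had 67 labelled ISC and 8 labelled non-ISC. Tle1, named after its value was seen, had no entry labelled ISC and 10 reads labelled non-ISC. Ctbp2, a corepressor, had 16 reads labelled ISC and 37 labelled non-ISC, a ratio of 0.211 (0.1095 to 0.388). Nfatc2, a calcium-regulated partner of FoxP proteins, had 22 reads in each library, a ratio of 0.4875 (0.2575 to 0.923). For FoxK and FoxN3 partners 2 of 9 were called higher, near the 26.7% over all host genes, Mbd5 with 39 reads labelled ISC and 3 labelled non-ISC and Asxl1 with 15 labelled ISC and no entry labelled non-ISC, and 0 were called lower (22.7% over all host genes), with a median of 0.47.

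The list of the IL-13 receptor axis also holds Ctnnb1 and Pan3, the host gene of the circRNA that the study dealt with. Of its 7 genes with enough reads, 2 were called higher and 2 lower, near the 26.7% and 22.7% over all host genes, with a median of −0.30. Pan3 was among those called higher and Ctnnb1 among those called lower, so the counts do not describe the receptor pathway alone. Pan3 had 360 reads labelled ISC and 42 labelled non-ISC, and the kinase Jak1 had 19 labelled ISC and 2 labelled non-ISC. Ctnnb1, which codes for beta-catenin, had 42 reads labelled ISC and 57 labelled non-ISC, a ratio of 0.359 (0.235 to 0.545), and the signal transducer Stat6 had 22 labelled ISC and 27 labelled non-ISC. Under the scaling to RPM totals, 13 of the FoxO kinases, 7 of the modifiers, 10 of the FoxP partners, 8 of the FoxK and FoxN3 partners, 3 of the IL-13 axis and 4 of the targets were called higher. In the deposited count column the balance turned in 4 of these lists, with 1 higher and 11 lower for the kinases, 1 and 7 for the modifiers, 3 and 9 for the FoxK and FoxN3 partners and 3 and 5 for the targets. The FoxP partners had 5 higher and 11 lower there, and the IL-13 axis 3 and 4. Lymphoid markers moved with the library labelled ISC in the same way as Runx1 and Rag1, and their part in these counts was not tested.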

How the data were processed

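Per the labels' protocols, RNA without ribosomal RNA was digested with RNase R, which removes linear RNA, broken to about 200 bp and read from both ends over 150 nt. Tools named in the submitters' processing notes are Trimmomatic 0.36 and FastQC, with the build mm9. No aligner or circRNA caller is given in the sources used here. Per the file headers, the authors deposited for each circRNA a count, an RPM value (that count per 1000000 reads of the library, which gives totals of 52636694 reads labelled ISC and 72271995 labelled non-ISC) and a count of junction reads. How the first count was assigned is not given. The junction count was used here, and a missing entry was counted as 0 for host genes. Junction ends fell on GENCODE M21 exon ends of GRCm38 in 79.4% to 81.09% of circRNAs with reads and in at most 0.32% when shifted by 1 nt, so coordinates are given as GRCm38, counted from 1.

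Ratios are of reads over each library's junction reads, with exact conditional (Clopper-Pearson) intervals at 95%, and shares have exact binomial intervals. Both cover counting error only, and reads without molecular identifiers, or counted on both mates, are not independent molecules. Median log2 ratios used a pseudocount of 0.5 read. The ratios were tested on simulated data that held counting error alone. The simulation therefore could not test missing entries, reads counted on both mates or differences between libraries of a group. The members and gene lists were chosen with earlier results of these data known. Named were all 9 genes, their circRNAs with at least 10 reads in a library or leading their gene, at most 5 called genes of a list, and the 3 hosts nearest to Foxp1; lesser circles were added after their values were seen, and some items that the rule names are not reported here. Exons follow the transcript that holds both ends. Only the junction of a circle was read, so its inner exons, length and coding content are those of that transcript. The recognition helix was found in translated transcripts by a motif 4 residues long, shorter than first planned because the FoxP proteins lack the longer one. Alternatives were other scalings, the deposited count, halved reads, other minimums, circRNAs with reads in both libraries, all circRNAs inside a gene, and a grouping of Foxp1 circles by position chosen after seeing the data. Python 3.11.15, pandas 2.3.3, SciPy 1.17.1 and Biopython 1.88 were used.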

Additional observations from a re-analysis of the deposited data

Results flagged for a closer look

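The library labelled non-ISC lists 9 forkhead circRNAs with a deposited count and 0 junction reads, with counts from 2 to 369. The highest, 369, belongs to Foxp1 at chr6:99162839-99248372, where the library labelled ISC has no entry. It was singled out because these counts stand outside the junction reads that every comparison used.

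Inside the Foxp1 gene, 4 circRNAs carry FANTOM transcript names in place of Foxp1 and so fell outside the rule. The largest, at chr6:99455894-99456580, had 8 junction reads labelled ISC and no entry labelled non-ISC. It was singled out as signal outside the host gene name. Its end at 99456580 is the same position that began 3 circles listed under Foxp1. With these names included, Foxp1 had 241 reads labelled ISC and 120 labelled non-ISC.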

How the results depend on the processing

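Scaling to the totals implied by RPM raised all ratios by 1.49 (log2) and turned from below to above 1 the sum (1.94), Foxp1 (2.65), Foxn2 (1.499), Foxn3 (1.43), Foxj3 (2.62), Foxo3 (2.75), Foxp4 (2.12), the circles of Foxn2 exon 2 (1.66), Foxj3 (1.68) and Foxo3 exon 3 (2.33) and the Foxp1 circle from 99428789 (1.08). It called 3 forkhead genes and 7 circRNAs higher. Median-ratio scaling, over 847 circRNAs, shifted ratios by 0.30 (log2), and the sum was 0.847. The deposited count, 17 labelled ISC and 630 labelled non-ISC for the Foxo3 exon 3 circle, took that circle from 0.829 to 0.00805, called lower. It gave 0.490 for the sum, 0.293 for Foxp1, 0.2955 for Foxn2, 1.15 for Foxn3 and 0.307 for the Foxp4 circle. Of these, it turned the direction of Foxn3 and the Foxp4 circle. It called 1 forkhead gene higher and 4 lower, and 13 circRNAs higher and 24 lower, and the Foxn3 exon 2 share then differed by 1.19 percentage points in place of 72.0 and that of the Foxp1 leading circle by 3.08. Keeping only circRNAs read in both libraries, the sum was 0.854, Foxn3 turned to 2.59 and the Foxn2 share difference was 0.355 in place of 9.51; the Foxn3 share had too few reads there for a value. With reads halved, 1 circRNA was called higher and 2 lower, and the share differences of the leading circles, 8.97 points for Foxn2 and 14.3 for Foxp1 in place of 15.6, were no longer outside counting error. A minimum of 20 reads left 2 circRNAs called lower, and no minimum gave 10. The cause of these changes was not tested, beyond the fewer reads or circRNAs that an alternative keeps. The share of Foxp1 reads from the start codon exon onward stayed outside counting error in each alternative run, with differences from 24.5 to 32.8 points. That grouping was chosen after the reads were seen, and the alternatives reuse these same libraries, so they lend it no support. A minimum of 50 reads per gene could not change it, since Foxp1 had 230 reads labelled ISC and 119 labelled non-ISC. No paired analysis was possible because each group has 1 library, although both labels carry the number 1. Depth limits the 3 genes under 10 reads, for which no change was detectable.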
